A study of Homo sapiens with 24 samples.

Results

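The genes described here are 9 targets of the transcription factor NRF2 that respond to oxidative stress: HMOX1, NQO1, SRXN1, OSGIN1, TXNRD1, GCLM, GCLC, SLC7A11 and FTL. They were chosen by gene symbol and not by a rule on their measured values, though with earlier results of these data known. Each matched 1 row of the deposited tables, so they are 9 of 60658 genes. Poly(A) RNA was sequenced from cells labelled SH-SY5Y, a neuroblastoma line, after knockdown (KD) of the circular RNA ciRS-7, also called CDR1as, or with a non-targeting control (NTC), in 4 setups with 3 libraries per group. The series tested whether the 4 ways of depleting ciRS-7 change messenger RNAs other than the target.

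The groups were as follows. AgoshRNA KD and AgoshRNA NTC received a vector that expresses an AgoshRNA, a short hairpin processed by Argonaute, against ciRS-7 or without a target. The gRNA KD and gRNA NTC groups received a plasmid for CasRx, an RNA-cutting CRISPR nuclease fused to GFP, with a plasmid expressing the guide RNA. The pre-gRNA KD and pre-gRNA NTC groups received the same CasRx plasmid with a plasmid expressing the guide in its precursor form. The syn-gRNA KD and syn-gRNA NTC groups received a chemically synthesised guide, whose delivery the labels do not describe. All groups were harvested 48 h after transfection. No untransfected cells are among the groups, and nothing in the labels says whether the 3 libraries of a group came from separate cultures, so p-values measure only the spread between these libraries. AgoshRNA, gRNA and pre-gRNA are called the plasmid setups below, and libraries carry the letters A, B and C of the deposited columns.

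NRF2, encoded by NFE2L2, is held at a low level by KEAP1, which hands it to a CUL3 and RBX1 ubiquitin ligase for degradation. Oxidants and electrophiles modify KEAP1, NRF2 then accumulates, pairs with small MAF proteins and binds antioxidant response elements near its targets, where BACH1 acts as a heme-sensitive repressor. The targets make glutathione, reduce thioredoxin and peroxiredoxins, and handle heme and iron. In neuroblastoma, cystine import for glutathione is known as a defence against lipid peroxidation.

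The core of the antioxidant response element was searched as TGACNNNGC, or GCNNNGTCA on the other strand, in promoters of RefSeq on GRCh38.p14, from 250 bases before to 50 bases after each gene's start. Of the 9 genes, 7 had an entry, with 8 promoters between them, and HMOX1 and SLC7A11 had none. The core was found for 2 genes, GCLM and TXNRD1, and in 13.3% of the 35116 promoters in the table. The windows of 30 bases below show where these letters lie before the starts of the 2 genes, with the matched core in capitals, 5′ to 3′ on the gene's strand.
GCLM, chr1:93909445-93909474, minus strand, 34 bases before the start: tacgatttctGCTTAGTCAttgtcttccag
TXNRD1, chr12:104215670-104215699, plus strand, 99 bases before the start: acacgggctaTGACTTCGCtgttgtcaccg
TXNRD1, another start, chr12:104286920-104286949, plus strand, 102 bases before the start: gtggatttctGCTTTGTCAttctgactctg
A further match 8 bases before the first TXNRD1 start is not shown. A match of these letters is a description and not a measured binding site.

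Library totals ranged from 10994974 to 16233777 counts, and 16947 to 18863 genes had at least 10 counts in a library. Levels are given as CPM, counts scaled to a common library total, and a pseudocount of 0.5 CPM was used for correlations. The knockdown could not be checked well at the targeted locus, since circular RNA carries no poly(A) tail: the host transcript LINC00632 had 16 to 132 counts, CDR1 0 to 26 and CDR1-AS 0 to 16. The labelled cell type was checked against 9 noradrenergic neuroblastoma markers, of which PHOX2A, DBH, TH, STMN2 and ELAVL4 had at most 5 counts in any library. The other 4 had more, with 70 to 159 counts for ISL1, 50 to 226 for GATA3, 15 to 74 for HAND2 and 9 to 63 for CHGA. Of 5 kidney-lineage markers, HOXA9 had 637 to 1799 counts, HOXA10 479 to 1895, HOXA11 250 to 1148, PAX2 64 to 215 and LHX1 8 to 45. All 5 kidney-lineage markers were thus detected in every library. Of the 9 noradrenergic markers, 5 were at or near 0, among them DBH and TH, which make noradrenaline. The cells are named here only by their label. Libraries also differed in how gene levels followed GC content, with a trend between -0.61 in AgoshRNA KD B and 0.82 log2 units per 10 percentage points of GC in AgoshRNA KD A. In the syn-gRNA setup that trend stayed between -0.32 and -0.10.

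Every one of the 9 genes was detected in all 24 libraries. FTL, the light chain of the iron store ferritin, was the most abundant, with 4229 to 12274 counts per library and a mean level of 600.0 CPM per kilobase. TXNRD1, the reductase of cytosolic thioredoxin, followed with a mean of 12.6 CPM per kilobase. SRXN1, which repairs oxidised peroxiredoxins, stood at 6.83 and HMOX1, the inducible enzyme that opens heme to biliverdin, at 5.23 CPM per kilobase. The subunits of the first enzyme of glutathione synthesis differed, with 3.22 CPM per kilobase for the modifier GCLM and 1.99 for the catalytic GCLC. NQO1, a quinone reductase, had 1.12 and SLC7A11, the cystine importer, 0.729 CPM per kilobase. OSGIN1, an oxidative stress response gene linked to growth control, was the lowest at 0.227 CPM per kilobase, with 5 to 24 counts per library, so its values carry large counting error.

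Some of these levels may share reads with overlapping genes of the table, on the same strand or, as the libraries were not stranded, on the opposite one. A gene listed only by a clone name (ENSG00000270299.1_5), on the same strand as SRXN1 and overlapping it, had 94.1 to 99.5% of the SRXN1 count in each library, so reads of the 2 genes cannot be told apart here. The gene RP11-818F20.1, which overlaps TXNRD1, had 9.01 to 122.0% of the TXNRD1 count, and RP11-505K9.4 had 18.8 to 660.0% of the OSGIN1 count. Values of TXNRD1 and OSGIN1 are uncertain to that extent. For SLC7A11, GCLC and NQO1 the overlapping gene with the most reads lies on the opposite strand and had at most 29.4, 12.8 and 16.7% of the gene's count. HMOX1, GCLM and FTL overlapped no other gene of the table, and the 4 FTL pseudogenes in the table held 0.0778% of the FTL count.

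HMOX1 frees iron, carbon monoxide and biliverdin from heme and is among the most inducible targets of NRF2. In the NTC arm its level was 25.7, 15.5 and 14.2 CPM in AgoshRNA A, B and C. It was 19.2, 17.2 and 8.28 CPM in pre-gRNA, and 14.3, 10.1 and 6.50 CPM in gRNA. The syn-gRNA NTC libraries had 6.91, 7.64 and 9.01 CPM, so all AgoshRNA libraries lay above them, whereas pre-gRNA and gRNA each had library C inside or below their range. In the KD arm HMOX1 was at 21.3, 13.7 and 14.6 CPM in AgoshRNA, 16.3, 15.7 and 8.42 CPM in pre-gRNA, and 17.9, 10.5 and 6.79 CPM in gRNA. The syn-gRNA KD libraries had 6.86, 8.36 and 7.18 CPM, below every AgoshRNA and every pre-gRNA library. Ordered by mean, HMOX1 ran from 18.5 ± 6.30 CPM (SD, n = 3) in AgoshRNA NTC through AgoshRNA KD, pre-gRNA NTC, pre-gRNA KD, gRNA KD, gRNA NTC and syn-gRNA NTC to 7.47 ± 0.793 CPM (SD, n = 3) in syn-gRNA KD. Neighbours in this order overlapped in every case, and in such bulk samples fewer cells with the transcript and less RNA per cell cannot be told apart.

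In 1 DESeq2 model of all 24 libraries the HMOX1 difference of AgoshRNA from syn-gRNA was 1.19 on the log2 scale in the NTC arm (SE 0.42, adjusted p = 0.126) and 1.14 in the KD arm (SE 0.42, adjusted p = 0.121). For pre-gRNA it was 0.93 (adjusted p = 0.215) and 0.81 (adjusted p = 0.357), and for gRNA 0.24 (adjusted p = 0.947) and 0.63 (adjusted p = 0.557). None of these passed the threshold of 0.05 after Benjamini-Hochberg adjustment over 20172 genes. With an offset for each library's GC trend, HMOX1 did pass for AgoshRNA, with a difference of 1.03 (adjusted p = 0.00282) in the NTC arm and 0.84 (adjusted p = 0.0206) in the KD arm. It also passed in the NTC arm when the model held only the 6 libraries compared (1.21, adjusted p = 0.0167). The GC offset called 1464 of all 20172 genes for AgoshRNA in the NTC arm and 1661 in the KD arm, against 371 and 634 without it. The model of 6 libraries called 362 of 18371 genes. HMOX1 in AgoshRNA against the other plasmid setups differed by 0.95 from gRNA and 0.26 from pre-gRNA in the NTC arm, and by 0.51 and 0.33 in the KD arm, all with an adjusted p of 1.0.

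SRXN1, the sulfiredoxin, gave the same order of syn-gRNA below the rest in more groups. Its NTC levels were 29.1, 12.2 and 13.8 CPM in AgoshRNA, 30.5, 15.7 and 17.6 CPM in gRNA, and 30.7, 17.8 and 19.8 CPM in pre-gRNA. In syn-gRNA NTC they were 11.5, 8.91 and 9.67 CPM, and no library of a plasmid setup fell this low. The KD levels were 36.5, 13.4 and 17.0 CPM in AgoshRNA, 29.8, 14.4 and 17.6 CPM in gRNA and 24.2, 20.0 and 17.1 CPM in pre-gRNA, against 12.1, 9.86 and 12.8 CPM in syn-gRNA. The groups again did not overlap, and library A was the highest of its group in each plasmid setup. The log2 differences from syn-gRNA were 0.82, 0.93 and 1.14 for AgoshRNA, gRNA and pre-gRNA in the NTC arm (SE 0.38 each, adjusted p = 0.311, 0.241 and 0.0639). In the KD arm they were 0.91, 0.81 and 0.76 (SE 0.38 each, adjusted p = 0.177, 0.314 and 0.321). With the GC offset SRXN1 passed in the NTC arm for gRNA (0.75, adjusted p = 0.0499) and pre-gRNA (0.80, adjusted p = 0.0252). The offset called 1206 and 1774 of all 20172 genes in these comparisons. In models of only the 6 libraries compared SRXN1 passed for the same setups (0.92 and 1.14, adjusted p = 0.0441 and 0.011). These models called 1018 of 18609 and 1319 of 18709 genes. In the KD arm SRXN1 passed for AgoshRNA only when AgoshRNA KD B was left out (1.15, adjusted p = 0.0446), where 2183 genes were called in all.

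NQO1 reduces quinones in a single step and is the classic reporter of NRF2 activity. Its NTC levels were 4.94, 4.27 and 3.33 CPM in AgoshRNA, 4.47, 3.55 and 4.06 CPM in gRNA, and 5.11, 4.45 and 3.72 CPM in pre-gRNA. The syn-gRNA NTC libraries, at 2.35, 2.7 and 3.09 CPM, lay below all of them. In the KD arm NQO1 was at 6.34, 3.45 and 3.77 CPM in AgoshRNA, 4.61, 3.07 and 3.32 CPM in gRNA, 3.48, 3.92 and 2.38 CPM in pre-gRNA and 2.64, 2.84 and 1.91 CPM in syn-gRNA. Only pre-gRNA overlapped syn-gRNA in this arm, through library C. The log2 differences from syn-gRNA were 0.61, 0.42 and 0.69 in the NTC arm (SE 0.33 each) and 0.86, 0.53 and 0.35 in the KD arm (SE 0.34 each), for AgoshRNA, gRNA and pre-gRNA. Adjusted p-values ranged from 0.146 to 0.722 over these comparisons, and NQO1 counts of 21 to 87 per library limit their precision.

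OSGIN1 was at 0.38 to 0.64 CPM in the 6 syn-gRNA libraries and at 0.32 to 1.75 CPM in the other 18. Its log2 difference of AgoshRNA from syn-gRNA in the KD arm was 1.33 (SE 0.64, adjusted p = 0.281), and its other 5 differences from syn-gRNA ran from 0.50 to 0.92.

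The remaining genes lay on both sides of syn-gRNA. TXNRD1 differed from it by -0.24 to 0.24 on the log2 scale over the 6 comparisons, and GCLM by -0.19 to 0.09. GCLC, the catalytic subunit that GCLM supports, had differences from -0.60 to -0.23 in the 6 comparisons, and none passed the test. FTL was at 424, 476 and 312 CPM in gRNA NTC against 485, 626 and 618 CPM in syn-gRNA NTC, and these groups did not overlap. That log2 difference was -0.66 (SE 0.44, adjusted p = 0.634). With the GC offset it was -0.81 (adjusted p = 0.0493), where 1206 of all 20172 genes were called. In the other 5 comparisons FTL differed from syn-gRNA by -0.13 to 0.21, and with the GC offset by -0.56 to -0.13, which turned AgoshRNA KD from 0.21 to -0.13.

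Counted over the list, no member passed the test against syn-gRNA in DESeq2 or in edgeR. Over all genes DESeq2 called 1.84% for AgoshRNA, 1.32% for gRNA and 3.25% for pre-gRNA in the NTC arm, and 3.14, 1.58 and 2.52% in the KD arm. At an unadjusted p under 0.05 there were 2, 1 and 3 members of 9 in the NTC arm, where 12.4, 11.8 and 17.8% of all genes were under it. With KD there were 4, 1 and 1 of 9, beside 15.2, 13.4 and 14.8% of all genes, so a count of 1 is near the background. The median log2 difference over the 9 members was 0.61, 0.24 and 0.69 in the NTC arm and 0.86, 0.51 and 0.35 in the KD arm for AgoshRNA, gRNA and pre-gRNA, where the median over all genes lay between -0.01 and 0.06. Members with every library above every syn-gRNA library numbered 3 for AgoshRNA NTC (HMOX1, NQO1 and SRXN1), against 7.80% of all genes. They numbered 3 for gRNA NTC (NQO1, SRXN1 and OSGIN1), against 21.3%, and 2 for pre-gRNA NTC (NQO1 and SRXN1), against 17.3%. In the KD arm they numbered 4 for AgoshRNA (HMOX1, NQO1, SRXN1 and OSGIN1), against 6.27%, and 2 each for gRNA (NQO1 and SRXN1) and pre-gRNA (HMOX1 and SRXN1), against 16.3% in each case. FTL in gRNA NTC was the 1 member with every library below syn-gRNA, against 8.47% of all genes. No member lay wholly below syn-gRNA in the other comparisons, where 11.1% of all genes did so for AgoshRNA NTC, 11.7% for pre-gRNA NTC, 9.33% for AgoshRNA KD and 9.59% for each of gRNA KD and pre-gRNA KD. Among the counts of members wholly above syn-gRNA, the 2 comparisons of AgoshRNA hold the shares farthest from their backgrounds. At an unadjusted p under 0.05 this was so for AgoshRNA KD only. There pre-gRNA NTC, with 3 of 9 beside 17.8%, was farther than AgoshRNA NTC, with 2 of 9 beside 12.4%. The comparisons within an arm share their syn-gRNA libraries, so they are not independent of each other.

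Between the plasmid setups no member passed the test and none had groups without overlap. DESeq2 called 0.0496 and 0.0347% of all genes for AgoshRNA against gRNA and pre-gRNA in the NTC arm, 0.0446% for each in the KD arm, and 0.0% for gRNA against pre-gRNA in either arm. Groups did not overlap, in either direction, for 6.02, 3.11 and 3.9% of all genes in the NTC arm (AgoshRNA against gRNA, AgoshRNA against pre-gRNA, gRNA against pre-gRNA) and for 2.3, 2.4 and 1.38% in the KD arm. At an unadjusted p under 0.05 the only member was HMOX1, in AgoshRNA NTC against gRNA NTC, where 1.83% of all genes were under it, and edgeR called none.

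Knockdown of ciRS-7 was then compared with its control within each setup. No member passed the test in any setup in DESeq2 or edgeR. DESeq2 called 0.0% of 17806 genes for AgoshRNA, of 18371 for gRNA, of 18717 for pre-gRNA and of 18513 for syn-gRNA. No member had an unadjusted p under 0.05 in the unpaired DESeq2 fits. Of all genes, 0.0% were under it for AgoshRNA, 0.0925% for gRNA, 0.0107% for pre-gRNA and 0.297% for syn-gRNA. With so few genes under it, the absence of members says nothing about the members in particular. For HMOX1, whose values per library stand above, the log2 fold change of KD over NTC was -0.12 in AgoshRNA (95% interval -0.86 to 0.61), 0.33 in gRNA (-0.63 to 1.29), -0.18 in pre-gRNA (-1.19 to 0.82) and -0.08 in syn-gRNA (-0.54 to 0.38). SRXN1 gave 0.30 (-0.71 to 1.32), 0.09 (-0.77 to 0.95), -0.17 (-0.90 to 0.56) and 0.20 (-0.19 to 0.59) in the same order. These fits do not use the pairing of libraries by letter. With the letter as a replicate block the SE for HMOX1 in pre-gRNA went from 0.51 to 0.17 and that for SRXN1 from 0.37 to 0.15, with fold changes of -0.16 and -0.17, and still no member was called. GCLM, at 23.1, 10.5 and 26.4 CPM in pre-gRNA KD A, B and C and 18.1, 8.45 and 20.2 CPM in pre-gRNA NTC, was higher with KD in all 3 pairs, by 0.32 in the blocked fit (SE 0.16, adjusted p = 0.831). Its unadjusted p in that DESeq2 fit was 0.0397, and 5.4% of all genes were under 0.05 there; with the GC offset added the difference was 0.21 and the unadjusted p 0.17. The lowest fold change of any member was -0.46 for NQO1 in pre-gRNA and the highest 0.60 for OSGIN1 in AgoshRNA, both with an adjusted p of 1.0. In syn-gRNA, OSGIN1 did not reach the count minimum and was not tested.

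SLC7A11 was the only member in any setup whose KD libraries all lay on one side of its NTC libraries. In syn-gRNA it was at 3.84, 3.63 and 4.91 CPM with KD and 3.02, 3.60 and 3.42 CPM with NTC, from 45 to 54 counts per library. Its log2 fold change was 0.29 (SE 0.30, adjusted p = 1.0), and 2.65% of all genes tested in this setup had all KD libraries above all NTC libraries, while 2.23% had them all below. In AgoshRNA, gRNA and pre-gRNA no member had groups without overlap, as 0.87, 2.3 and 1.13% of all genes did. The authors' deposited table gave an adjusted p of 1.0 for each of the 9 genes in each of the 4 setups. The difference of the KD effect between setups was tested over the 6 pairs of setups. No member was called, and 0.0% of the 20172 genes were called in each pair. No member had an unadjusted p under 0.05, where 0.144 to 0.223% of all genes did. This model does not use the pairing of libraries by letter. With the letter as a replicate block within each setup, DESeq2 again called 0 genes in each pair. There 0.55 to 9.12% of all genes had an unadjusted p under 0.05.

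**Figure D1:**
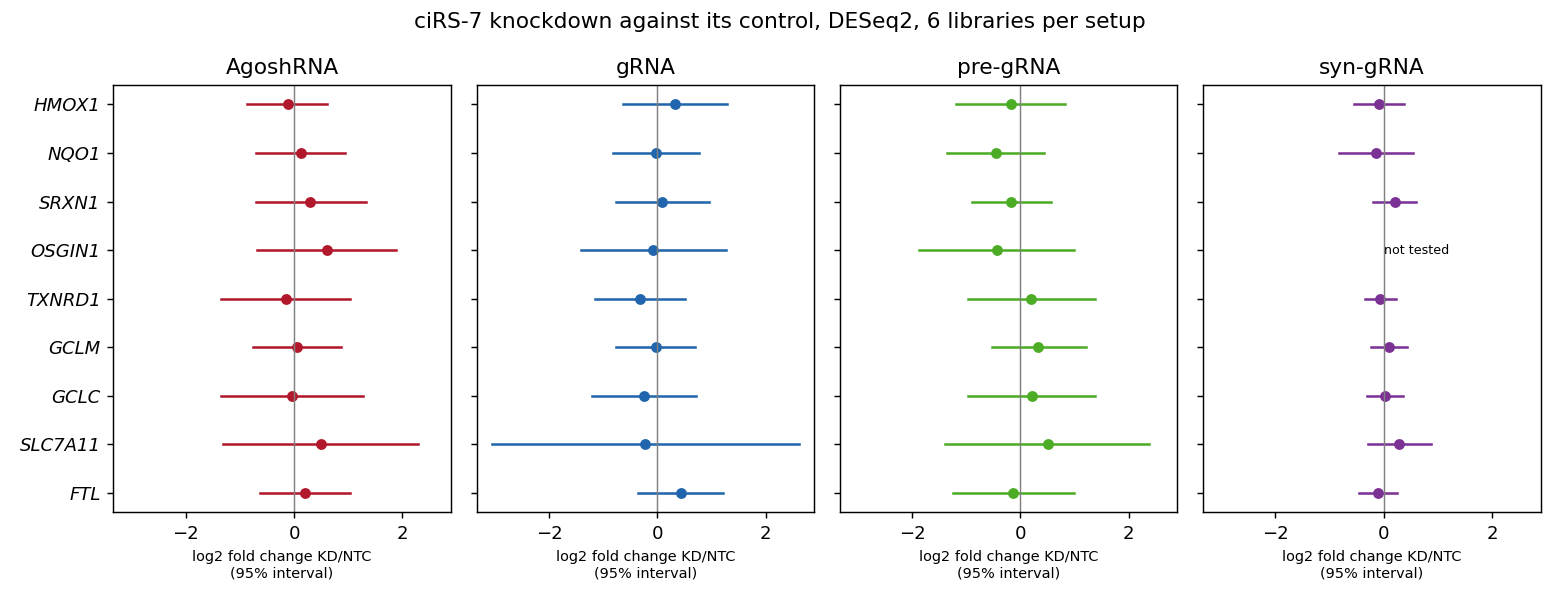
DESeq2 log2 fold changes of KD over NTC (dots) with 95% intervals (lines) for the 9 genes in each setup, fitted on the 6 libraries of that setup. All intervals include 0, and they are narrowest in syn-gRNA, where OSGIN1 was not tested.

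Some members differed widely between libraries of the same setup, SLC7A11 most of all in the plasmid setups. SLC7A11, the light subunit of the antiporter that trades glutamate for cystine, was at 1.60, 7.36 and 7.55 CPM in AgoshRNA NTC A, B and C and at 1.38, 15.2 and 5.82 CPM in AgoshRNA KD. In gRNA it was at 1.72, 3.86 and 26.8 CPM with NTC and 1.12, 3.66 and 22.9 CPM with KD. In pre-gRNA it was at 2.96, 1.5 and 15.0 CPM with NTC and 3.54, 0.914 and 23.4 CPM with KD. KD and NTC libraries of the same letter were thus high or low together, and library C was the high one in gRNA and pre-gRNA. The highest of the 6 libraries of a setup exceeded the lowest 11-fold in AgoshRNA, 24-fold in gRNA and 25.6-fold in pre-gRNA, but 1.63-fold in syn-gRNA. Over 13835 genes whose mean count was 50 or more, the median of this ratio was 2.53, 2.06, 2.11 and 1.39, and its 90th percentile 6.32, 4.39, 5.59 and 1.83. The SLC7A11 difference of gRNA from syn-gRNA in the NTC arm, 1.54 on the log2 scale (SE 1.16, adjusted p = 0.705), rested on 1 library: without gRNA NTC C it was -0.38.

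GCLC and TXNRD1 spread in the same manner, with ratios of 4.18, 4.04 and 5.28 for GCLC and 3.27, 3.24 and 4.53 for TXNRD1 in AgoshRNA, gRNA and pre-gRNA, against 1.37 and 1.35 in syn-gRNA. FTL had ratios of 2.26, 2.13 and 2.36 in the plasmid setups and 1.38 in syn-gRNA. HMOX1, NQO1 and GCLM differed by setup. In gRNA their ratios were 2.75, 1.5 and 1.72, beside a median over genes of 2.06. In pre-gRNA they were 2.32, 2.15 and 3.12, all above the median of 2.11. In AgoshRNA the ratio was 1.87 for HMOX1, 1.91 for NQO1 and 1.75 for GCLM, below the median of 2.53 given above. It was 3.0 for SRXN1 and 5.32 for OSGIN1. Across the 24 libraries TXNRD1 and GCLC moved together (Pearson r of log2 CPM 0.91), as did GCLC and SLC7A11 (r = 0.79), GCLM and GCLC (r = 0.77), HMOX1 and NQO1 (r = 0.78) and NQO1 and SRXN1 (r = 0.76). GCLM and FTL moved in opposite directions (r = -0.90), as did TXNRD1 and FTL (r = -0.77) and HMOX1 and GCLC (r = -0.68). The 36 pairs thus held genes of 1 pathway that went apart as well as together, and all points share library depth and GC trend.

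The GC content of the genes themselves ran from 35.4% for SLC7A11 and 37.3% for GCLM through 44.3% for GCLC, 44.8% for TXNRD1, 46.0% for NQO1 and 53.6% for SRXN1 to 56.3% for FTL, 58.1% for HMOX1 and 63.4% for OSGIN1. AgoshRNA KD A, with the highest GC trend of the 24 libraries (0.82), had 1.38 CPM of SLC7A11, 6.63 CPM of GCLC and 21.3 CPM of HMOX1. AgoshRNA KD B, with the lowest trend (-0.61), had 15.2, 27.7 and 13.7 CPM of the same genes. In the pre-gRNA KD libraries B and C the trends were 0.69 and -0.43, SLC7A11 was at 0.914 and 23.4 CPM, GCLC at 4.96 and 26.2 CPM and FTL at 772 and 328 CPM. In both of these pairs SLC7A11 and GCLC were the lower in the library with the higher trend. The order did not follow GC content for every member: NQO1, at 46.0% GC, was at 6.34 CPM in AgoshRNA KD A and 3.45 CPM in B, and SRXN1, at 53.6%, was at 17.8 CPM in pre-gRNA NTC B (trend 0.67) and 19.8 CPM in C (trend -0.30). With the GC offset, the HMOX1 difference from syn-gRNA fell in every comparison. In the NTC arm it went from 1.19 to 1.03 in AgoshRNA, 0.24 to 0.08 in gRNA and 0.93 to 0.44 in pre-gRNA. In the KD arm it went from 1.14 to 0.84, 0.63 to 0.22 and 0.81 to 0.45 in the same order. GCLM went from between -0.19 and 0.09 to between 0.31 and 0.63.

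**Figure D2:**
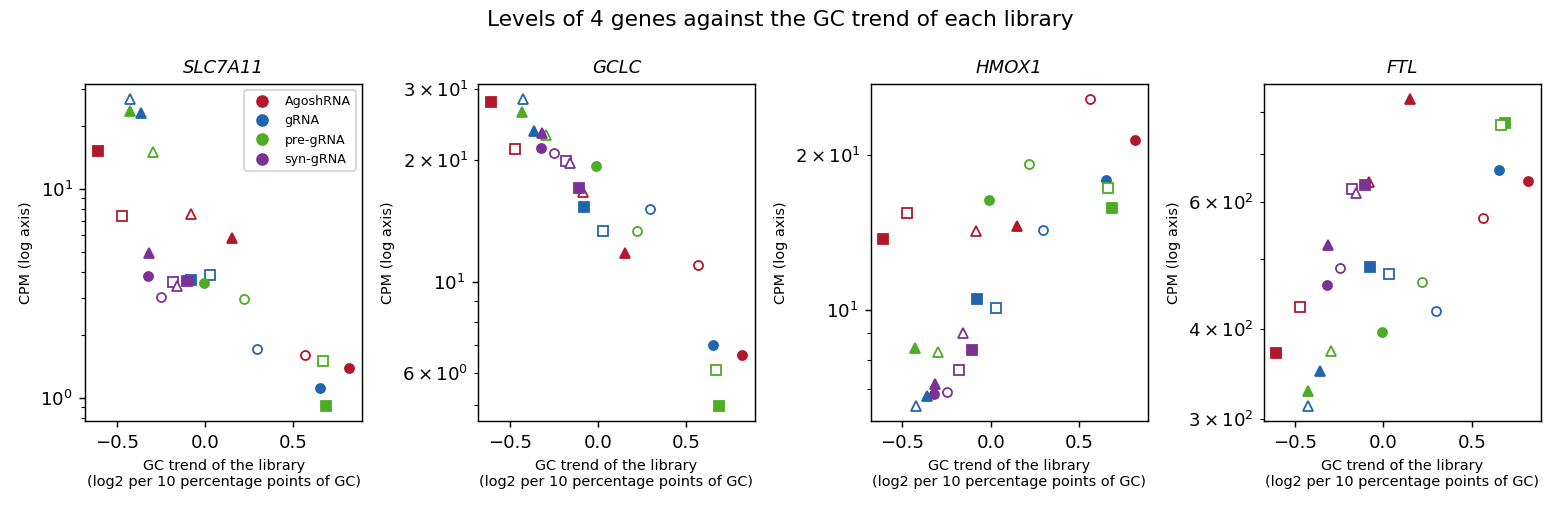
Levels of SLC7A11, GCLC, HMOX1 and FTL (CPM, log axes) against the GC trend of each of the 24 libraries (log2 units per 10 percentage points of GC). Symbols are as in the plot of levels by group. SLC7A11 and GCLC tend to fall from left to right, with highest and lowest levels of 26.8 and 0.914 CPM and of 28.3 and 4.96 CPM. The 6 syn-gRNA libraries sit together between -0.32 and -0.10, with SLC7A11 at 3.02 to 4.91 CPM. In gRNA KD C, at a trend of -0.36, it was at 22.9 CPM.

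The regulators of the pathway were counted beside its targets. All 10 listed regulators (NFE2L2, KEAP1, CUL3, RBX1, MAFF, MAFG, MAFK, BACH1, SQSTM1 and NFE2L1) were tested, and none was called in any comparison of setups or of KD with NTC by DESeq2. At an unadjusted p under 0.05 there were 1, 1 and 4 of them for AgoshRNA, gRNA and pre-gRNA against syn-gRNA in the NTC arm, and 4, 0 and 1 in the KD arm, beside 12.4, 11.8 and 17.8% and 15.2, 13.4 and 14.8% of all genes. NFE2L2, which encodes NRF2, ranged from 32.7 to 50.5 CPM in syn-gRNA and from 9.84 to 54.6 CPM in the plasmid setups. KEAP1, its inhibitor, ranged from 13.4 to 18.5 CPM in syn-gRNA and from 16.6 to 43.9 CPM in the plasmid setups. The repressor BACH1 ranged from 28.6 to 46.0 CPM in syn-gRNA and from 4.30 to 59.2 CPM in AgoshRNA, where its highest library exceeded its lowest 13.8-fold.

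Of 32 further targets, 26 had enough counts to be tested, and 2 of them were called, both higher than in syn-gRNA. BLVRA, which reduces the biliverdin that HMOX1 makes, was at 42.2, 36.7 and 28.6 CPM in AgoshRNA NTC and 43.6, 34.4 and 29.5 CPM in AgoshRNA KD. The syn-gRNA libraries had 21.1, 16.8 and 17.4 CPM with NTC and 20.0, 18.2 and 15.6 CPM with KD, below all of these. The log2 difference was 0.95 in the NTC arm (SE 0.26, adjusted p = 0.0206) and 1.00 in the KD arm (SE 0.26, adjusted p = 0.0094). GSR, the glutathione reductase, was at 117.3, 114.1 and 85.9 CPM in pre-gRNA NTC and at 56.8, 47.3 and 47.5 CPM in syn-gRNA NTC, a log2 difference of 1.07 (SE 0.32, adjusted p = 0.0358). Neither call was made by edgeR, where adjusted p was 0.115 and 0.0642 for BLVRA and 0.11 for GSR, and each was lost in DESeq2 when certain single libraries were left out. The 2 genes make up 1 call of 26 in each of the 3 comparisons, beside 1.84, 3.14 and 3.25% of all genes called there. No listed target was called between KD and NTC in any setup.

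Genes of other stress responses were counted beside these. Of 6 heat-shock genes, HSPA6 and DNAJB1 were called higher by DESeq2 in AgoshRNA than in each other setup, in both arms. HSPA6, a strictly inducible chaperone, ranged from 33.0 to 41.6 CPM in AgoshRNA, from 1.36 to 10.3 CPM in syn-gRNA and from 0.0 to 0.823 CPM in gRNA and pre-gRNA. Of 6 targets of ATF4, the factor of the amino acid response that also acts on SLC7A11, only CHAC1, which breaks down glutathione, was called, higher in AgoshRNA KD than in syn-gRNA KD (2.74 on the log2 scale, SE 0.66, adjusted p = 0.00445). HSPA6 and DNAJB1 were highest in AgoshRNA, where HMOX1 had its highest group means. Among the other setups the order was not shared. HSPA6 was higher in syn-gRNA, where HMOX1 had its lowest means, than in gRNA and pre-gRNA. The median of DNAJB1 was 143 CPM in syn-gRNA, 88.2 in gRNA and 101 in pre-gRNA. In both arms 1 heat-shock gene was called lower in gRNA, and 1 in pre-gRNA, than in syn-gRNA. The median of CHAC1 was 13.5 CPM in AgoshRNA, 15.0 in gRNA, 16.5 in pre-gRNA and 4.44 in syn-gRNA. Its AgoshRNA KD libraries ran from 11.4 to 52.4 CPM. The part of these genes in the HMOX1 difference was not tested.

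The genes whose pattern over the 24 libraries was most like HMOX1, among the 13835 genes of that mean count, were SMIM11A and SMIM11B (Pearson r of log2 CPM 0.914 and 0.913), VPS25 (r = 0.899), UCHL1 (r = 0.895) and EIF4E2 (r = 0.893). SMIM11A and SMIM11B are near-identical copies whose reads cannot be separated, and none of the 5 is on the list of NRF2 targets. All 5 were thus more like HMOX1 than NQO1 was (r = 0.78), the closest of the other members.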

How the data were processed

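Per the submitters' processing notes, reads were handled with Trim Galore, STAR 2.7.3a, featureCounts and DESeq2 on hg19; the annotation release is not given in the sources used here. The authors deposited 4 tables with raw counts per gene in 24 libraries, identical between tables, and for each setup a log2 fold change with its p-value. Their 24 columns of normalized counts were not used. Gene length was taken from the deposited column, and GC content from GENCODE release 29 (93.2% of genes matched).

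Each setup's KD and NTC libraries were compared with the Wald test of DESeq2 1.42.0 (R 4.3.3), and setups and KD effects in 1 model of 24 libraries, over genes that reached 10 counts in 3 or more libraries. Benjamini-Hochberg adjusted p under 0.05, over all genes tested, was called. Same-letter KD and NTC libraries of a setup deviated together in all 12 pairs (r 0.36 to 0.97), so the letters were taken to pair libraries. In syn-gRNA the pairing is less clear: NTC C had r = 0.42 with KD B and 0.36 with KD C. The labels do not tie letters to replicate numbers. Alternatives were edgeR 4.0.16, TMM factors, no filter on low counts, GC offsets (lowess span 0.3), a replicate block, other sets of libraries and leaving out each library. The fits were tested on simulated data with the same spread for every gene and without a GC trend or pairing. That simulation does not show how many real differences these libraries could reveal. All 9 members were named, other pathway genes where called with a mean of at least 50 counts, and for HMOX1 the 5 most similar genes. NFE2L2, KEAP1 and BACH1 are named for their role, and HSPA6, DNAJB1 and CHAC1 as called genes of the 2 lists beside the pathway. Members and lists were chosen with earlier results of these data known.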

Additional observations from a re-analysis of the deposited data

How the results depend on the processing

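The count of members called was computed in 17 results under 213 alternatives and stayed at 0 in 205. With the GC offset it was 1 for AgoshRNA, 2 for gRNA and 1 for pre-gRNA against syn-gRNA in the NTC arm, and 1 for AgoshRNA in the KD arm. The offset called 1464, 1206 and 1774 of all 20172 genes in those NTC comparisons and 1661 in that KD comparison. With only the 6 libraries compared the count of members was 1 for each plasmid setup in the NTC arm. The genes called there were 362 of 18371, 1018 of 18609 and 1319 of 18709. Leaving out each library gave 0 to 1 members for AgoshRNA against syn-gRNA in the KD arm, beside 107 to 2183 genes in all. The replicate block, by column letter, left the count of members called at 0 in each KD against NTC comparison, alone and with the GC offset, and over all genes it called 1 gene in syn-gRNA, which is no member, and 0 in the other setups. The cause of these changes was not tested.

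Of 39 log2 differences under 451 alternatives, 410 kept their sign and side of the threshold, 9 newly passed it, 16 lost it (GSR and BLVRA) and 16 changed sign. The SRXN1 fold change in gRNA was -0.04 with the GC offset and with the replicate block and GC offset together. Leaving out each library, KD over NTC ran from -0.28 to 0.11 in AgoshRNA, -0.17 to 0.62 in gRNA, -0.49 to 0.12 in pre-gRNA and -0.21 to 0.05 in syn-gRNA for HMOX1. For SRXN1 it ran from -0.12 to 0.71, -0.33 to 0.39 and -0.28 to 0.01 in the plasmid setups. In the NTC arm HMOX1 ran from -0.03 to 0.49 for gRNA against syn-gRNA and from -0.06 to 0.55 for AgoshRNA against pre-gRNA, and SLC7A11 from -0.38 to 2.04 for gRNA against syn-gRNA.

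Over all genes the calls against syn-gRNA depended on the model. For AgoshRNA, gRNA and pre-gRNA in the NTC arm DESeq2 called 371, 266 and 656 genes, edgeR 16, 0 and 149, the GC offset 1464, 1206 and 1774, and models of only the libraries compared 362, 1018 and 1319. In the KD arm these were 634, 318 and 508, then 192, 38 and 183, then 1661, 1012 and 1571, then 235, 442 and 723. Without syn-gRNA NTC C the NTC counts were 43, 18 and 104, without syn-gRNA KD C the KD counts were 107, 37 and 109, and without AgoshRNA KD B its KD count was 2183. Counts of 5 to 24 for OSGIN1 and 21 to 87 for NQO1 limit what these libraries can show, as do 3 libraries per group.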
